A study of Mus musculus with 18 samples.

Results

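The stromal-vascular fraction (SVF) of adipose tissue is the mixture of cells that sediments when the tissue is digested with collagenase and the floating adipocytes are taken off. It holds adipocyte progenitors, fibroblasts, vessel and nerve cells, immune cells and, in fat that lies within the body cavity, cells of the serous lining. The comparison described here set the SVF of interscapular brown fat against the SVF of epididymal white fat, and comprised 6 of the 18 arrays of the series. The 3 brown SVF arrays came from interscapular brown adipose tissue and the 3 epididymal SVF arrays from epididymal adipose tissue. All mice were untreated young adult C57BL/6 males, and the design text gives each group in biological triplicate. The other groups, also of 3 arrays each, were the adipocyte fractions of the same depots and both fractions of inguinal fat. They shared in the estimate of the spread, and the adipocyte fractions of the same depots were used for a further comparison.

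Brown fat burns lipid to produce heat through the mitochondrial uncoupling protein Ucp1, whereas epididymal fat is a visceral store of triglyceride that hangs from the epididymis and is covered by mesothelium. The interscapular depot develops from somite-derived mesoderm that also gives rise to back muscle and dermis, and it is densely supplied with sympathetic nerves. Positional transcription factors, among them the Hox genes and several T-box genes, keep a record of where along the body a mesenchymal cell arose. The comparison asks how far the non-adipocyte cells of the 2 depots differ. In a bulk fraction, fewer cells of a type and less RNA per cell cannot be told apart.

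RNA was labelled with the dye Cy3 and hybridised to 1-colour Agilent expression arrays. A level is the log2 of a probe's signal over the 75th percentile of that array, so a level of 0 lies at that percentile, and all differences are brown SVF minus epididymal SVF on the log2 scale with their standard error (SE). Levels of different genes come from different probes and cannot be set against each other. The 75th percentile signal of the 6 arrays ranged from 732 to 1259 units, and 66.2% to 72.3% of the spots were well above background. The number of arrays limits the precision: p-values measure the spread between these samples. A gene was called where limma's adjusted p was below 0.05. Of 19217 genes, 342 were called, 203 of them higher and 139 lower in brown SVF, which is 1.78% of the genes in either direction, 1.06% higher and 0.723% lower. At an unadjusted p below 0.05 there were 1015 genes higher and 1084 lower in brown SVF. The levels correlated at 0.97 to 0.98 among the brown SVF arrays, at 0.96 to 0.98 among the epididymal SVF arrays and at 0.92 to 0.96 between the depots (Pearson's r across genes, which are not independent replicates).

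**Figure D1:**
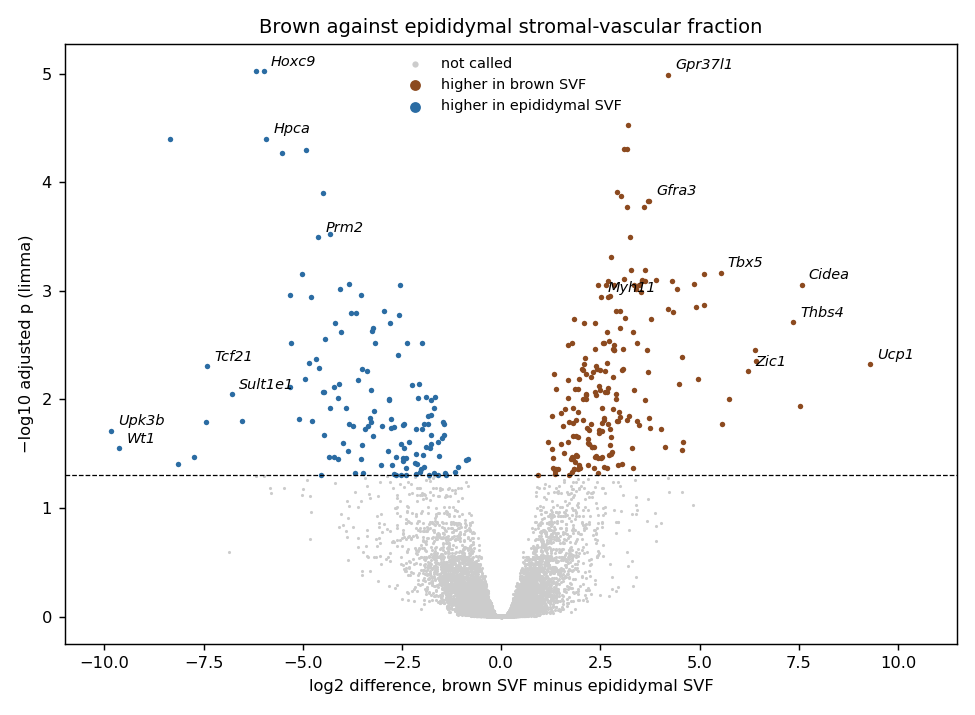
Each point is 1 of 19217 genes, with the log2 difference between brown and epididymal SVF on the x axis and limma's −log10 adjusted p on the y axis; the dashed line marks 0.05. The 203 genes called higher in brown SVF reach a difference of 9.31 at Ucp1, and the 139 called lower reach -9.83 at Upk3b.

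The 6 arrays were not processed as 1 block. Replicates 1 and 2 of brown SVF shared a slide, replicates 1 and 2 of epididymal SVF shared another, and these 4 arrays were scanned on 1 day; replicate 3 of each group lay on 1 common slide scanned on another day. All 342 called genes had brown and epididymal arrays that did not overlap. The same sign on each scan day taken alone follows from this and is no separate check. Non-overlapping arrays were found for 23.3% of all genes, 10.0% with brown SVF above and 13.3% with epididymal SVF above. With scan day as a fixed block 372 genes were called, and with slide as a fixed block, a fit that rests on the 1 slide that held both depots, 98. Leaving out a single array moved the count by more than 1.5 times in each case: 197, 212 and 192 genes were called without brown SVF replicate 1, 2 and 3, and 222, 183 and 204 without epididymal SVF replicate 1, 2 and 3. Of the 342 genes, 145 kept their call whichever of these 6 arrays was left out. A fit on the 6 arrays alone called 620 genes, 280 higher and 340 lower in brown SVF, of which 296 were among the 342.

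The labels were checked first against the genes that define the fractions and depots. Zic1, a zinc-finger transcription factor of the dorsal mesoderm, marks brown fat precursors, Gfra3 encodes the receptor for artemin on nerve-associated cells, and Upk3b, a uroplakin, marks mesothelium. Zic1 stood at 0.95, 1.52 and 1.20 on the brown SVF arrays, against -2.50, -5.11 and -7.40 on the epididymal SVF arrays. The groups did not overlap, and the epididymal arrays spread over a wide range with Zic1 well above background on 2 of 3 arrays (6.23 ± 1.07, adjusted p = 0.00546). Upk3b stood at -7.88, -8.02 and -6.91 on the brown SVF arrays, against 0.85, 2.51 and 3.33 on the epididymal SVF arrays, where no brown array was well above background (at least 266-fold lower in brown SVF, adjusted p = 0.0193). Adipocyte transcripts were present in both fractions: Adipoq, which encodes the adipocyte hormone adiponectin, stood at 3.15, 7.16 and 4.42 on the brown SVF arrays, against 4.30, 4.41 and 2.85 on the epididymal SVF arrays. Brown SVF replicate 2 was the highest of the 6, the groups overlapped, and the difference did not pass the test (1.06 ± 0.84, adjusted p = 0.814). Without brown SVF replicate 2 the Adipoq difference was -0.067. Upk3b lost its call without brown SVF replicate 1, 2 or 3 or epididymal SVF replicate 2 or 3, with an adjusted p of up to 0.0947 (without epididymal SVF replicate 3).

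The promoters of 3 genes that mark the sides of the comparison are shown to place the depot genes on the genome; the start of transcription lies after the first 250 of the 300 bases, and CG pairs, the sites at which mammalian DNA can be methylated, are in capitals. The sequences are those of RefSeq on GRCm38.p6, and Zic1 and Ucp1 were higher in brown SVF while Upk3b was lower.
Zic1, chr9:91365719-91366018, minus strand: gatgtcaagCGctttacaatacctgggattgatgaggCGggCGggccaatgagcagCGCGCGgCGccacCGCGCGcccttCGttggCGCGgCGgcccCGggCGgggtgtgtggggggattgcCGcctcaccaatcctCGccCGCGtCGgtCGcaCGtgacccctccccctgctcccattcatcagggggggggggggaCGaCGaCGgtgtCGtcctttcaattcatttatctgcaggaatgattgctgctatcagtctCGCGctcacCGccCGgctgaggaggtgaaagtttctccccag
Ucp1, chr8:83290098-83290397, plus strand: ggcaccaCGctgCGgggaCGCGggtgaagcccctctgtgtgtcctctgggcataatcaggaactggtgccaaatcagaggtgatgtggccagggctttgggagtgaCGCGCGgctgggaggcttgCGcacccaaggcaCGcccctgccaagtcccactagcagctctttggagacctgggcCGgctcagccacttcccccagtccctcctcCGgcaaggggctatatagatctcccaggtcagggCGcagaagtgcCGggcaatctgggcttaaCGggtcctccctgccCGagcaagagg
Upk3b, chr5:136038246-136038545, plus strand: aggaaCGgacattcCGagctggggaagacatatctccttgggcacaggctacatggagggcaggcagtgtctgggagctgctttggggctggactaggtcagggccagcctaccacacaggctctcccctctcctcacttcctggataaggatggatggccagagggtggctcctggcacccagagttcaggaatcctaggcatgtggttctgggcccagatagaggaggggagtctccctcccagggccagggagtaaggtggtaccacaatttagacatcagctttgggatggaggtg
The Zic1 promoter held 31 CG pairs, a number reached by 10.6% of the 32851 promoters in the table, the Ucp1 promoter 15, reached by 34.6%, and the Upk3b promoter 2, with 23.3% of promoters holding as few. This describes the letters only, since methylation was not measured. A promoter entry was matched for 239 of the 342 called genes (69.9%), too few for a comparison of the called genes as a set.

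Genes of the thermogenic adipocyte were higher in brown SVF. Of 19 genes of that list that were tested, 11 were called higher and none lower, with a median difference of 2.96 against -0.01 over all genes. Ucp1 stood at 3.64, 4.50 and 4.30 on the brown SVF arrays, against -5.61, -2.29 and -7.58 on the epididymal SVF arrays, and was well above background on 1 of the 3 epididymal arrays. Its difference was 9.31 ± 1.56 (adjusted p = 0.00474), and the lowest brown array lay far above the highest epididymal one. Cidea, a lipid droplet protein abundant in brown adipocytes, stood at 4.89, 6.75 and 6.70 on the brown SVF arrays, against -1.39, 0.11 and -3.09 on the epididymal SVF arrays. The difference was 7.57 ± 1.01 (adjusted p = 0.000876), with no overlap. Cox8b, a subunit of cytochrome c oxidase found in brown fat and muscle, stood at 3.49, 4.12 and 4.29 on the brown SVF arrays, against -0.82, -0.48 and -2.17 on the epididymal SVF arrays and differed by 5.12 ± 0.72 (adjusted p = 0.00135). Slc27a2, a very-long-chain acyl-CoA synthetase, stood at -2.27, 0.79 and 0.09 on the brown SVF arrays, against -5.77, -6.32 and -6.51 on the epididymal SVF arrays. No epididymal array was well above background for it, which gives a level at least 35.5-fold higher in brown SVF (adjusted p = 0.00996). Slc27a2 lost its call without brown SVF replicate 2 or 3, with an adjusted p of up to 0.0577 (without brown SVF replicate 2). Cpt1b, the muscle and brown fat form of the enzyme that admits fatty acids to mitochondria, differed by 3.31 ± 0.73 (adjusted p = 0.0281). Cpt1b lost its call without brown SVF replicate 2 or 3 or epididymal SVF replicate 1, 2 or 3, with an adjusted p of up to 0.134 (without brown SVF replicate 3). The other called members of the list were Cox7a1, Otop1, Kcnk3, Ppara, Pank1 and Dio2, named here after their values were seen.

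Markers of mature adipocytes gave fewer calls. Of 20 genes on that list 1 was called, Slc2a4, the insulin-responsive glucose transporter, at 3.06, 4.48 and 3.83 on the brown SVF arrays, against 1.37, 1.71 and 0.46 on the epididymal SVF arrays (2.60 ± 0.48, adjusted p = 0.00857). Slc2a4 lost its call without brown SVF replicate 2 or epididymal SVF replicate 3, with an adjusted p of up to 0.0536 (without epididymal SVF replicate 3). The median difference of the list was 0.99 and its mean level was 2.53, 4.90 and 2.88 on the brown SVF arrays, against 2.96, 3.01 and 1.63 on the epididymal SVF arrays. Brown SVF replicate 2 stood above the other 5 arrays, which overlapped between depots. Without this replicate the median of the mature adipocyte list was 0.14 with no gene called, while 7 of the 19 thermogenic genes were called, with a median of 2.72. The thermogenic count was 6 without brown SVF replicate 3, 11 without brown SVF replicate 1, 8 or 9 without any 1 of the epididymal SVF arrays, 6 under normexp background correction, 4 with slide as a fixed block and 1 among the arrays of the first scan day alone. The part of mature adipocytes in the thermogenic differences was not tested. Genes of the respiratory chain and ATP synthase had a median difference of 0.69, with 40 of 41 higher in brown SVF and none called.

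Positional transcription factors differed in both directions. Of 45 tested outside the Hox clusters, 6 were called higher and 4 lower in brown SVF. Besides Zic1, the brown side held Tbx15, Lhx8 and Tbx5. Tbx15, a T-box factor of the dorsal and head mesoderm, stood at -1.04, -0.22 and -0.05 on the brown SVF arrays, against -7.21, -6.90 and -6.38 on the epididymal SVF arrays. No epididymal array was well above background, so Tbx15 was at least 36.1-fold higher in brown SVF (adjusted p = 0.00347). Lhx8, a LIM homeobox factor known as a brown fat marker, stood at -1.81, -0.44 and -0.83 on the brown SVF arrays, against -7.76, -8.04 and -6.53 on the epididymal SVF arrays, at least 24.0-fold higher in brown SVF (adjusted p = 0.00444). Tbx5, a T-box factor of the heart and forelimb field, stood at 1.10, 0.85 and 0.46 on the brown SVF arrays, against -4.52, -5.21 and -4.45 on the epididymal SVF arrays and differed by 5.53 ± 0.69 (adjusted p = 0.000680). Each of these genes separated the groups completely. Hox genes of paralog groups 1 to 5, the anterior groups, had a median difference of 0.35 with none of 12 called.

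**Figure D2:**
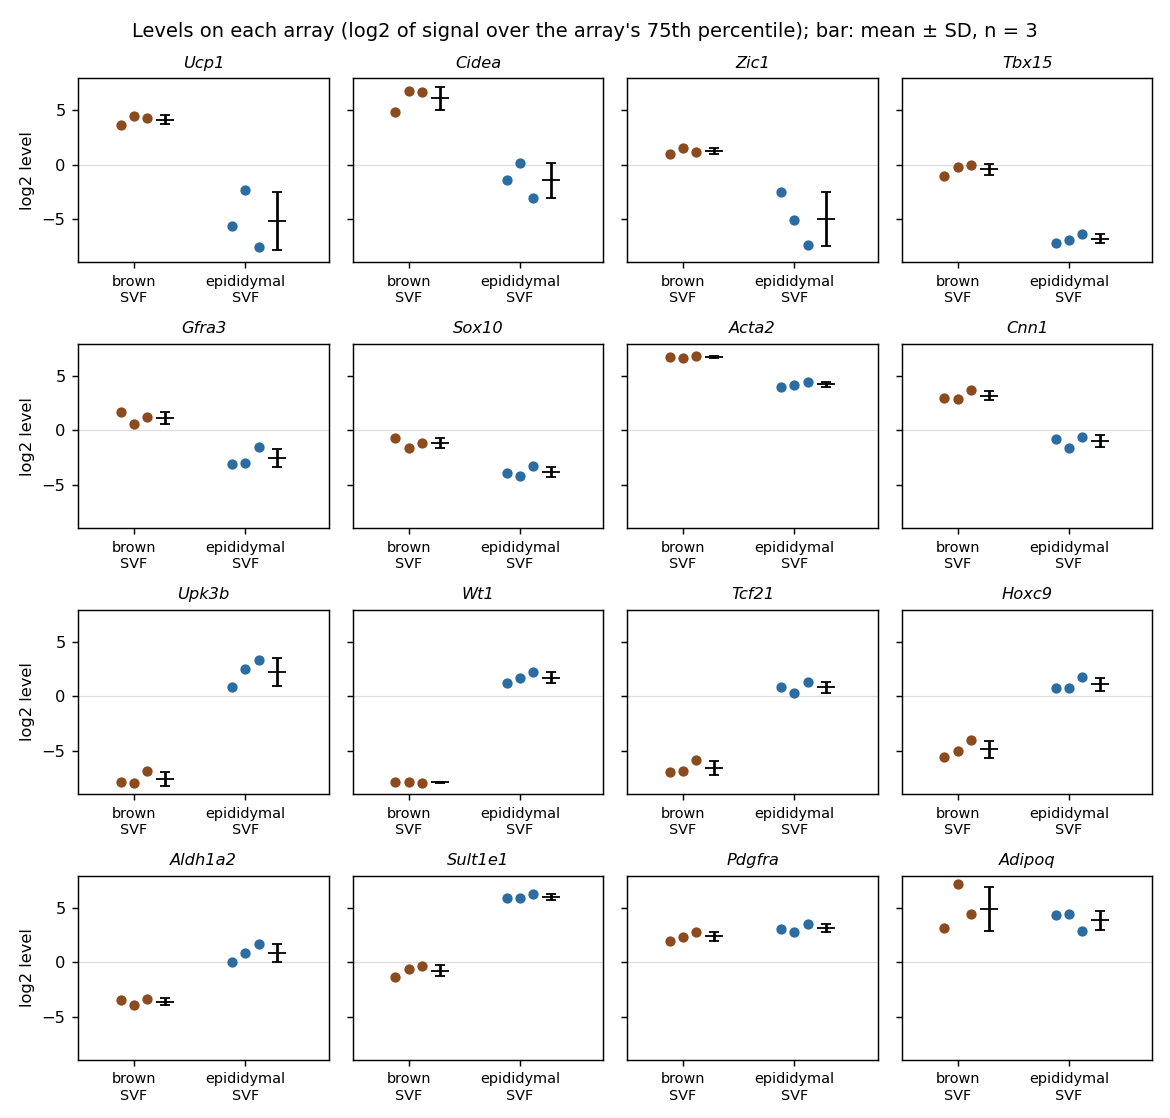
Levels of 16 genes on each array (log2 of signal over the array's 75th percentile, y axis) in brown SVF and epididymal SVF; points are arrays and the bar gives the mean ± SD of 3 arrays. The first 8 genes lie higher in brown SVF and the next 6 higher in epididymal SVF without overlap, while Pdgfra and Adipoq overlap, with Adipoq at 7.16 on brown SVF replicate 2.

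On the epididymal side, Tcf21, a basic helix-loop-helix factor of visceral mesoderm, stood at -6.98, -6.90 and -5.88 on the brown SVF arrays, against 0.82, 0.35 and 1.30 on the epididymal SVF arrays. No brown array was well above background, and Tcf21 was at least 100-fold lower in brown SVF (adjusted p = 0.00493). Hoxc9, a posterior Hox gene, stood at -5.60, -4.99 and -4.02 on the brown SVF arrays, against 0.77, 0.79 and 1.79 on the epididymal SVF arrays, with 2 of 3 brown arrays well above background, and had one of the smallest p-values of the comparison (-5.99 ± 0.44, adjusted p = 9.46e-06). Its neighbour Hoxc8 stood at -7.69, -5.60 and -6.79 on the brown SVF arrays, against -3.20, -3.39 and -3.91 on the epididymal SVF arrays, at least 4.66-fold lower in brown SVF (adjusted p = 0.0128). Hoxc8 lost its call without brown SVF replicate 1 or 3 or epididymal SVF replicate 1 or 2, with an adjusted p of up to 0.0792 (without brown SVF replicate 1). Hoxc9 and Hoxc8 were the called genes among 15 of groups 6 to 13, whose median difference was -0.90. Hoxc10 was not well above background on any of the 6 arrays. Lhx9, a LIM homeobox factor of the gonad and limb, was at least 4.20-fold lower in brown SVF (adjusted p = 0.00522), and Tbx1, a T-box factor of the pharyngeal mesoderm, was lower by a smaller amount (-1.95 ± 0.46, adjusted p = 0.0421). A gene was tested only if some group had it well above background on every array. Among the brown and epididymal groups, only the epididymal SVF met this for Lhx9, which largely set its direction. Tbx1 lost its call whichever of the 6 arrays was left out, with an adjusted p of up to 0.189 (without brown SVF replicate 1). In the inguinal SVF, Tcf21 stood at 0.57, -6.72 and -5.07, so that inguinal replicate 1 lay near the epididymal arrays and the other 2 near the brown ones.

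Mesothelial genes gave the largest differences on the epididymal side. All 18 genes of the list had lower means in brown SVF, with a median difference of -4.95, or -4.18 where the genes not well above background in brown SVF are set at their bound, and 16 of the 18 had groups that did not overlap. Only 6 of the 18 were called, and the count was 1 with slide as a random block or scan day as a fixed block, 9 with scan day as a random block, and 0 with slide as a fixed block or on the first scan day alone. Over all genes 13.3% did not overlap with epididymal SVF above, and 0.723% were called lower. Wt1, the transcription factor of the mesothelium and urogenital ridge, stood at -7.87, -7.89 and -7.98 on the brown SVF arrays, against 1.23, 1.70 and 2.21 on the epididymal SVF arrays and was at least 186-fold lower in brown SVF (adjusted p = 0.0281). Muc16, a large membrane mucin of serous linings, stood at -6.78, -6.23 and -7.88 on the brown SVF arrays, against -0.19, 1.41 and 2.31 on the epididymal SVF arrays, at least 128-fold lower (adjusted p = 0.0391). Upk1b, the tetraspan partner of uroplakins, stood at -7.87, -7.26 and -7.98 on the brown SVF arrays, against -1.51, 0.24 and 1.42 on the epididymal SVF arrays, at least 58.7-fold lower (adjusted p = 0.0338). No brown array was well above background for these 3 genes or Upk3b, and for all of them epididymal SVF replicate 1 was the lowest and replicate 3 the highest of the epididymal arrays. Krt8, a keratin of simple epithelia, was measured in both depots at -4.24, -3.22 and -4.20 on the brown SVF arrays, against 0.14, 0.84 and 2.67 on the epididymal SVF arrays (-5.11 ± 1.01, adjusted p = 0.0150). Slc39a8, a zinc and manganese importer, stood at -2.65, -2.63 and -2.42 on the brown SVF arrays, against 1.19, 1.56 and 1.54 on the epididymal SVF arrays (-4.00 ± 0.86, adjusted p = 0.0253). Msln, which encodes mesothelin, stood at -3.46, -3.29 and -2.92 on the brown SVF arrays, against 2.18, 3.58 and 5.16 on the epididymal SVF arrays, without overlap, yet with -6.86 ± 2.47 did not pass the test (adjusted p = 0.253).

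**Figure D3:**
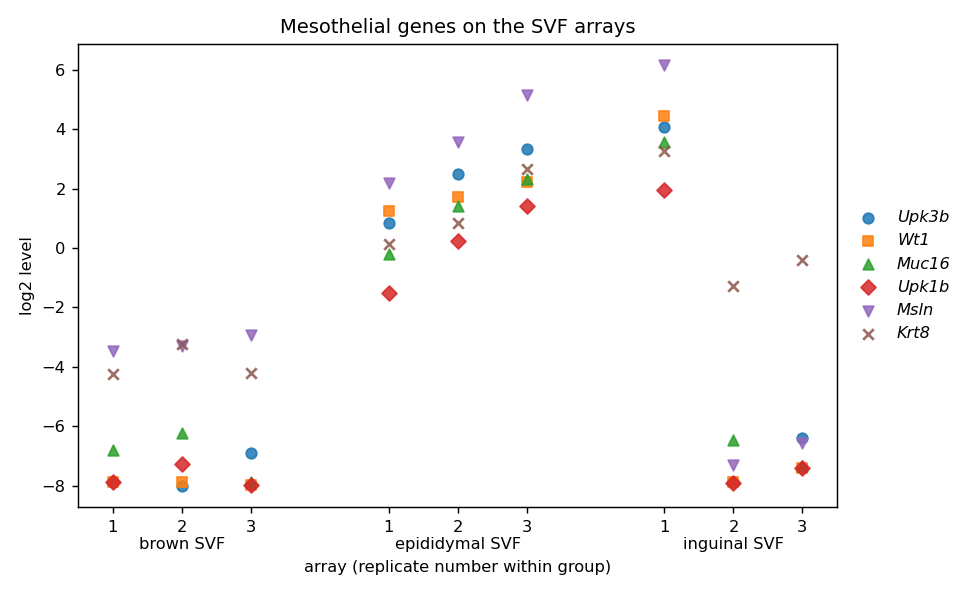
Levels of 6 mesothelial genes (log2, y axis) on the 9 SVF arrays, ordered by depot and replicate number. The brown SVF arrays lie between -8.02 and -2.92, the epididymal SVF arrays between -1.51 and 5.16, and inguinal SVF replicate 1 lies at or above the epididymal arrays while its group's other arrays lie low.

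An array outside the comparison entered the spread of these genes. Inguinal SVF replicate 1 had a mean level of 3.78 over the 18 mesothelial genes, against -3.15 and -3.41 for inguinal replicates 2 and 3; the spread of all 6 groups was pooled in the fit. The mean level was -3.49, -3.37 and -3.31 on the brown SVF arrays, against 0.73, 1.81 and 2.65 on the epididymal SVF arrays. Without inguinal SVF replicate 1, 16 of the 18 mesothelial genes were called lower in brown SVF, and with the 6 compared arrays alone 14 were. With that replicate in the fit, leaving out 1 of the 6 arrays left 0 called genes without brown SVF replicate 1 or 3 or epididymal SVF replicate 3, 1 without replicate 2 of either depot and 2 without epididymal SVF replicate 1. Wt1 lost its call whichever of the 6 arrays was left out, with an adjusted p of up to 0.111 (without epididymal SVF replicate 3). Muc16 lost its call whichever of the 6 arrays was left out, with an adjusted p of up to 0.179 (without epididymal SVF replicate 3). Upk1b lost its call whichever of the 6 arrays was left out, with an adjusted p of up to 0.166 (without epididymal SVF replicate 3). Krt8 lost its call without brown SVF replicate 1 or 3 or epididymal SVF replicate 3, with an adjusted p of up to 0.0893 (without epididymal SVF replicate 3). Slc39a8 lost its call whichever of the 6 arrays was left out, with an adjusted p of up to 0.100 (without epididymal SVF replicate 2). In the adipocyte fractions of the same depots the mean level of the list was -3.82 in brown and 0.96 in epididymal adipocytes.

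Schwann cell and myelin genes were higher in brown SVF. Schwann cells wrap or accompany peripheral axons, and of 15 genes of the list 7 were called higher and none lower, with a median difference of 1.88. Gfra3 stood at 1.69, 0.60 and 1.23 on the brown SVF arrays, against -3.10, -2.97 and -1.56 on the epididymal SVF arrays and differed by 3.72 ± 0.40 (adjusted p = 0.000147). Every brown array of Gfra3 lay above every epididymal one, with brown replicate 1 the highest. Sox10, the transcription factor that specifies neural crest glia, stood at -0.72, -1.57 and -1.18 on the brown SVF arrays, against -3.88, -4.23 and -3.31 on the epididymal SVF arrays (2.65 ± 0.35, adjusted p = 0.000876). Mal, a lipid raft protein of myelin, stood at -1.07, -2.60 and -1.73 on the brown SVF arrays, against -5.33, -5.67 and -4.61 on the epididymal SVF arrays with 2 of 3 epididymal arrays well above background (3.40 ± 0.46, adjusted p = 0.000960). Prx and Foxd3 were also called higher, and Mbp, a myelin protein, had a difference of -0.72 and was not called. The list's count was 5 to 7 with any 1 of the 6 arrays left out, 4 under normexp background correction, 3 on the first scan day alone and 2 with slide as a fixed block. Of the 5 neuronal genes tested none was called and the median was 0.37.

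Outside the list, genes with known roles in nerve tissue were called in both directions; they were grouped after their values were seen and belong to no fixed list. Lower in brown SVF were Hpca, Gria1, Slit2 and Amph, with values given further on. Gpr37l1, a receptor of satellite glia and astrocytes, stood at 1.08, 0.10 and 0.50 on the brown SVF arrays, against -4.04, -3.89 and -3.0 on the epididymal SVF arrays and had the smallest adjusted p among the genes higher in brown SVF (4.20 ± 0.32, adjusted p = 1.01e-05). Chl1, a neural adhesion molecule, stood at 0.45, -0.62 and -0.37 on the brown SVF arrays, against -3.86, -3.66 and -3.69 on the epididymal SVF arrays (3.56 ± 0.46, adjusted p = 0.000792). Serpini1, which encodes neuroserpin, an inhibitor of tissue plasminogen activator secreted by axons, stood at 0.54, 0.22 and 0.53 on the brown SVF arrays, against -3.09, -2.97 and -3.79 on the epididymal SVF arrays (3.71 ± 0.64, adjusted p = 0.00555). Ntf3, the neurotrophin of sensory and sympathetic neurons, was higher by 1.80 ± 0.43 (adjusted p = 0.0465). Ntf3 lost its call whichever of the 6 arrays was left out, with an adjusted p of up to 0.198 (without epididymal SVF replicate 3).

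Genes of the vessel wall were higher in brown SVF as well. Of 13 smooth muscle and mural genes 8 were called higher and none lower, with a median of 1.56. Acta2, smooth muscle actin, stood at 6.72, 6.64 and 6.85 on the brown SVF arrays, against 4.05, 4.20 and 4.48 on the epididymal SVF arrays (2.49 ± 0.45, adjusted p = 0.00816), and the arrays within each depot differed by less than 0.5. Myh11, smooth muscle myosin, stood at 4.29, 4.32 and 4.50 on the brown SVF arrays, against 1.56, 2.16 and 1.85 on the epididymal SVF arrays (2.51 ± 0.35, adjusted p = 0.00115). Cnn1, calponin, stood at 3.02, 2.91 and 3.70 on the brown SVF arrays, against -0.77, -1.63 and -0.59 on the epididymal SVF arrays (4.20 ± 0.60, adjusted p = 0.00146), the largest difference of the list. Myocd, the coactivator myocardin that switches on smooth muscle genes together with serum response factor, stood at -0.75, -0.99 and -0.37 on the brown SVF arrays, against -3.93, -3.29 and -4.06 on the epididymal SVF arrays (3.06 ± 0.52, adjusted p = 0.00522). The other called members were Cspg4, Tagln, Lmod1 and Notch3. The 5 members not called were Rgs5, with a difference of 1.24, Kcnj8 with 0.50, Abcc9 with 0.24, Pdgfrb with -0.12 (1 of its spots was left out on brown SVF replicate 3) and Des with -0.86. The 8 calls became 6 or 7 with any 1 of the 6 arrays left out, 4 with slide as a fixed block and 1 on the first scan day alone. The 15 endothelial genes all had higher means in brown SVF, by a median of 0.67, and none was called; Pecam1, an adhesion molecule of endothelium, stood at 3.50, 2.47 and 2.68 on the brown SVF arrays, against 2.88, 2.45 and 0.80 on the epididymal SVF arrays, with overlap. The 6 lymphatic endothelial genes all had lower means in brown SVF, by a median of -1.24, and none was called. Actc1, cardiac actin, was also higher (2.37 ± 0.54, adjusted p = 0.0342) at 2.74, 2.79 and 3.23 on the brown SVF arrays, against 0.44, 0.64 and 0.58 on the epididymal SVF arrays. Actc1 lost its call whichever of the 6 arrays was left out, with an adjusted p of up to 0.136 (without brown SVF replicate 3).

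Serum response factor binds the CArG box, and its partner Myocd was among the called genes, so the promoter windows of the mural list were searched for it on both strands, after the values were seen. Of the 13 mural genes tested, 9 had a promoter entry and 0 of those held a match in 300 bases, while 1.63% of all promoters did. The Actc1 window held 1, at bases -47 to -38 from the start of transcription, shown in capitals. A missing match says only that these letters are not in this window.
Actc1, chr2:114052826-114053125, minus strand: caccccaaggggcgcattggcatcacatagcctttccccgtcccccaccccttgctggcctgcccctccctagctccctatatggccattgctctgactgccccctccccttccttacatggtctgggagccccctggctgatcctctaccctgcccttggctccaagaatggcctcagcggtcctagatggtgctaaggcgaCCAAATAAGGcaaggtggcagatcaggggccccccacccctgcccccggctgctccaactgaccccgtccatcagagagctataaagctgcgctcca

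Of 16 skeletal muscle genes 2 were called higher in brown SVF and none lower, with a median of 2.91, or 2.38 with the 4 genes not well above background on any epididymal SVF array at their bound. The groups did not overlap for 12 genes with the brown arrays above and for 2, among them Actn3 (-2.02), with the epididymal arrays above. Over all genes these shares were 10.0% and 13.3%, and 1.06% were called higher. The 2 of 16 with the epididymal arrays above lie near the share of all genes. The count depended on an array outside the comparison: inguinal SVF replicate 2 had a mean level of 1.40 over the list, against -2.36 and -2.72 for inguinal replicates 1 and 3. Without it 8 muscle genes were called higher, and with the 6 compared arrays alone 9 were, while none was with slide as a fixed block or on the first scan day alone. Myh4, the fast IIb myosin heavy chain, stood at -0.57, 0.90 and -0.15 on the brown SVF arrays, against -7.89, -6.79 and -7.72 on the epididymal SVF arrays, at least 51.0-fold higher in brown SVF (adjusted p = 0.0115). Myh4 lost its call without brown SVF replicate 2 or epididymal SVF replicate 3, with an adjusted p of up to 0.0568 (without brown SVF replicate 2). Mb, myoglobin, stood at -1.24, 0.01 and -1.12 on the brown SVF arrays, against -5.73, -6.20 and -5.30 on the epididymal SVF arrays, at least 27.4-fold higher (adjusted p = 0.00652). Tcap, the sarcomere protein telethonin, stood at 0.47, 2.27 and 0.33 on the brown SVF arrays, against -4.18, -3.19 and -3.24 on the epididymal SVF arrays (4.56 ± 1.01, adjusted p = 0.0289), and Myh7, the slow and cardiac myosin heavy chain, at -1.78, 2.31 and -1.89 on the brown SVF arrays, against -5.11, -7.70 and -5.25 on the epididymal SVF arrays with 1 of 3 epididymal arrays well above background (5.57 ± 1.13, adjusted p = 0.0168). Brown SVF replicate 2 was the highest array for all 4 genes, as it was for Adipoq. Tcap lost its call whichever of the 6 arrays was left out, with an adjusted p of up to 0.138 (without brown SVF replicate 2). Myh7 lost its call without brown SVF replicate 2 or epididymal SVF replicate 2, with an adjusted p of up to 0.102 (without epididymal SVF replicate 2). The mean level of the muscle list was -1.15, 0.18 and -1.08 on the brown SVF arrays, against -3.44, -3.32 and -3.05 on the epididymal SVF arrays, and its median difference without brown SVF replicate 2 was 2.30 with 1 gene called. The part of skeletal muscle fibres in the brown SVF differences was not tested. Myog, the myogenic transcription factor myogenin, was at least 4.19-fold higher in brown SVF (adjusted p = 0.0186), at -4.79, -3.86 and -1.98 on the brown SVF arrays, against -7.18, -7.90 and -7.64 on the epididymal SVF arrays, with replicate 3 the highest. Among the brown and epididymal groups, only the brown SVF had Myog well above background on every array, as testing required. The direction of Myog was thus largely set by the filter. Myog lost its call without brown SVF replicate 2 or 3 or epididymal SVF replicate 2 or 3, with an adjusted p of up to 0.104 (without brown SVF replicate 3). Pln, phospholamban, a regulator of the calcium pump of cardiac, smooth and slow muscle, stood at -1.38, -1.36 and -0.97 on the brown SVF arrays, against -4.66, -4.64 and -5.74 on the epididymal SVF arrays (3.78 ± 0.56, adjusted p = 0.00180). Bves and Mlip, both of striated muscle membranes or nuclei, were at least 15.1-fold (adjusted p = 0.000866) and at least 13.1-fold (adjusted p = 0.000697) higher in brown SVF.

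**Figure D4:**
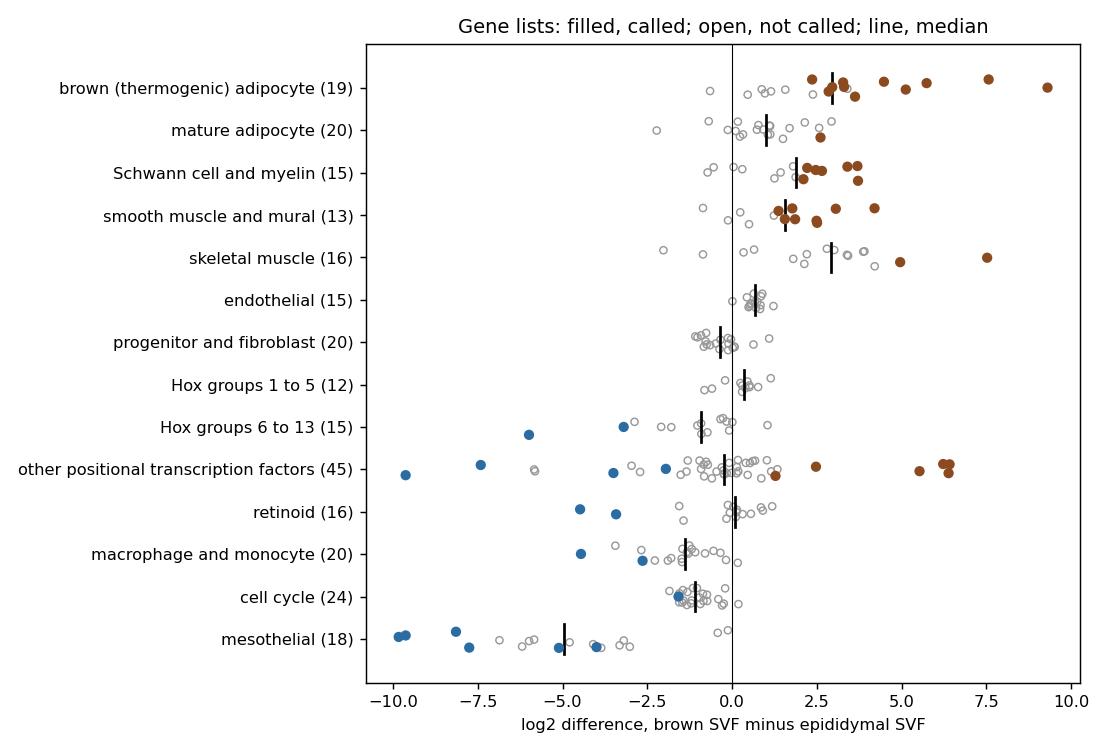
Differences between brown and epididymal SVF (log2, x axis) of the members of 14 gene lists, with the number tested in brackets; filled points are called genes, open points are not, and the line is the list median. The thermogenic, skeletal muscle, Schwann and mural lists lie to the right, with medians of 2.96, 2.91, 1.88 and 1.56. The mesothelial list lies to the left, with a median of -4.95.

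Secreted and matrix proteins were found on both sides. Of 41 extracellular matrix genes 2 were called higher and 1 lower in brown SVF, with a median of -0.40. Thbs4, thrombospondin 4, a matrix glycoprotein of tendon and muscle, stood at 1.81, 3.85 and 2.68 on the brown SVF arrays, against -4.86, -5.14 and -3.76 on the epididymal SVF arrays (7.37 ± 1.09, adjusted p = 0.00195), a wide gap in which brown replicate 2 was again the highest. Tnc, tenascin C, was higher by 2.61 ± 0.45 (adjusted p = 0.00541), and Fmod, fibromodulin, a collagen-binding proteoglycan, differed by -2.69 ± 0.55 (adjusted p = 0.0178). Fmod lost its call without brown SVF replicate 2 or epididymal SVF replicate 1, 2 or 3, with an adjusted p of up to 0.0946 (without brown SVF replicate 2). Acan, aggrecan of cartilage, was higher at -1.99, -2.41 and -1.26 on the brown SVF arrays, against -4.81, -5.18 and -4.38 on the epididymal SVF arrays (2.90 ± 0.42, adjusted p = 0.00152). Cytl1, a cytokine-like protein of cartilage, stood at 2.49, 2.27 and 2.74 on the brown SVF arrays, against -2.99, -2.19 and -2.05 on the epididymal SVF arrays (4.91 ± 0.70, adjusted p = 0.00141). Sbspon, a matrix protein with somatomedin B and thrombospondin domains, stood at -0.18, -0.63 and -0.03 on the brown SVF arrays, against -5.31, -4.24 and -4.18 on the epididymal SVF arrays (4.30 ± 0.56, adjusted p = 0.000806). Neither gene's groups came within 3.5 of each other.

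Signalling proteins of the BMP and Wnt families were called in both directions too. Sostdc1, a BMP and Wnt antagonist, stood at -1.29, -2.59 and -1.53 on the brown SVF arrays, against -7.71, -6.09 and -4.89 on the epididymal SVF arrays with 1 of 3 epididymal arrays well above background (4.43 ± 0.60, adjusted p = 0.000955). Chrdl2, a chordin-like BMP antagonist, was at least 7.47-fold higher in brown SVF (adjusted p = 0.0245). Among the brown and epididymal groups, only the brown SVF had Chrdl2 well above background on every array, as testing required. The direction of Chrdl2 was thus largely set by the filter. Bmp5 differed by 1.89 ± 0.38 (adjusted p = 0.0154), although another probe for the gene had the opposite sign. Inhbb, the activin B subunit, stood at -0.21, -0.57 and -0.24 on the brown SVF arrays, against 2.30, 2.31 and 2.72 on the epididymal SVF arrays (-2.78 ± 0.55, adjusted p = 0.0150), lower in brown SVF on every array. Sfrp5, a secreted Wnt inhibitor, differed by 2.45 ± 0.56 (adjusted p = 0.0348) and Wnt5b by -2.25 ± 0.40 (adjusted p = 0.00743). Chrdl2 lost its call without brown SVF replicate 1, 2 or 3 or epididymal SVF replicate 1 or 2, with an adjusted p of up to 0.115 (without epididymal SVF replicate 2). Bmp5 lost its call without brown SVF replicate 1, 2 or 3 or epididymal SVF replicate 2 or 3, with an adjusted p of up to 0.0864 (without epididymal SVF replicate 3). Inhbb lost its call without brown SVF replicate 1, 2 or 3 or epididymal SVF replicate 2 or 3, with an adjusted p of up to 0.0737 (without epididymal SVF replicate 3). Sfrp5 lost its call without brown SVF replicate 1, 2 or 3 or epididymal SVF replicate 1 or 2, with an adjusted p of up to 0.167 (without epididymal SVF replicate 2). Igf2, insulin-like growth factor 2, stood at 3.77, 3.34 and 3.54 on the brown SVF arrays, against 0.80, 1.22 and 1.45 on the epididymal SVF arrays (2.39 ± 0.40, adjusted p = 0.00494), and Dlk1, a preadipocyte factor that restrains adipogenesis, at 1.75, 1.63 and 1.82 on the brown SVF arrays, against -0.08, -1.53 and -1.92 on the epididymal SVF arrays (2.91 ± 0.58, adjusted p = 0.0158). Dlk1 lost its call without brown SVF replicate 1, 2 or 3 or epididymal SVF replicate 2 or 3, with an adjusted p of up to 0.0939 (without epididymal SVF replicate 3).

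Retinoic acid is made from retinaldehyde by the Aldh1a enzymes, and 2 of the 3 tested were called lower in brown SVF. Aldh1a2 stood at -3.50, -3.99 and -3.38 on the brown SVF arrays, against 0.03, 0.87 and 1.68 on the epididymal SVF arrays (-4.48 ± 0.82, adjusted p = 0.00850), and Aldh1a3 at 0.33, 0.11 and 1.67 on the brown SVF arrays, against 4.36, 3.92 and 4.09 on the epididymal SVF arrays (-3.42 ± 0.71, adjusted p = 0.0186). No brown array reached an epididymal array for either, and Aldh1a1, with -1.56, was not called. Aldh1a2 lost its call without epididymal SVF replicate 3 (adjusted p = 0.0516). Aldh1a3 lost its call without brown SVF replicate 1 or 2 or epididymal SVF replicate 1, 2 or 3, with an adjusted p of up to 0.0933 (without brown SVF replicate 1). The remaining 14 of 16 retinoid genes were not called and the list median was 0.08.

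Further genes were higher in epididymal than in brown SVF, which does not make them particular to the epididymal SVF. On the inguinal SVF arrays Sult1e1 stood at -1.02, 4.72 and -0.59 and Slit2 at 0.59, -2.03 and -3.60. Aox3 stood there at 0.49, 0.10 and -3.36, while Slc38a5 was low on each, at -3.48, -6.32 and -7.08. Sult1e1, the estrogen sulfotransferase, stood at -1.37, -0.60 and -0.35 on the brown SVF arrays, against 5.87, 5.87 and 6.32 on the epididymal SVF arrays, a difference of -6.80 ± 1.25 (adjusted p = 0.00894) with the widest gap between groups among the named genes that were measured on all 6 arrays. Igfbp2, a binding protein of insulin-like growth factors, stood at -5.24, -4.92 and -4.85 on the brown SVF arrays, against -1.45, 0.86 and 1.48 on the epididymal SVF arrays (-5.30 ± 0.84, adjusted p = 0.00302). Slit2, a secreted axon guidance cue, stood at -3.22, -4.02 and -2.83 on the brown SVF arrays, against 0.75, 0.76 and 1.09 on the epididymal SVF arrays (-4.22 ± 0.76, adjusted p = 0.00762). The brown arrays of all 3 genes lay below every epididymal array. Slc38a5, a glutamine transporter, differed by -4.67 ± 0.77 (adjusted p = 0.00421), and Amph, amphiphysin, by -3.77 ± 0.55 (adjusted p = 0.00159). Fndc5, the membrane precursor of irisin, stood at -3.17, -3.21 and -1.69 on the brown SVF arrays, against 1.92, 1.73 and 2.78 on the epididymal SVF arrays (-4.83 ± 0.81, adjusted p = 0.00465). Hpca, the neuronal calcium sensor hippocalcin, stood at -7.07, -6.74 and -6.19 on the brown SVF arrays, against -0.56, -1.02 and -0.66 on the epididymal SVF arrays and was at least 33.9-fold lower in brown SVF (adjusted p = 3.94e-05). Among the brown and epididymal groups, only the epididymal SVF had Hpca well above background on every array, as testing required. The direction of Hpca was thus largely set by the filter. Clic6, an intracellular chloride channel protein, differed by -4.46 ± 0.94 (adjusted p = 0.0214), Aox3, an aldehyde oxidase, by -3.85 ± 0.85 (adjusted p = 0.0296), and Fyb2 by -4.80 ± 0.67 (adjusted p = 0.00115). The galectin genes Lgals2 and Lgals7 were at least 51.3-fold (adjusted p = 0.0158) and at least 42.3-fold (adjusted p = 0.0161) lower in brown SVF; Lgals7 stood at -3.22, -0.07 and 2.02 on the epididymal SVF arrays, with replicate 1 the lowest and replicate 3 the highest as for the mesothelial genes. Clic6 lost its call without brown SVF replicate 1 or 2 or epididymal SVF replicate 1, 2 or 3, with an adjusted p of up to 0.0967 (without brown SVF replicate 1). Aox3 lost its call whichever of the 6 arrays was left out, with an adjusted p of up to 0.119 (without brown SVF replicate 1). Lgals2 lost its call without brown SVF replicate 1, 2 or 3 or epididymal SVF replicate 2 or 3, with an adjusted p of up to 0.0851 (without epididymal SVF replicate 3). Lgals7 lost its call without brown SVF replicate 1, 2 or 3 or epididymal SVF replicate 2 or 3, with an adjusted p of up to 0.0950 (without epididymal SVF replicate 3).

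Immune genes were taken by cell type. Of 20 macrophage and monocyte genes 2 were called (10.0%, against 1.78% of all genes), both lower in brown SVF. In this list 19 of 20 had lower means there, with a median of -1.40. The groups did not overlap for 13 of the 20, with epididymal SVF above, against 13.3% of all genes. Retnla, a secreted product of alternatively activated macrophages, stood at 1.33, 0.51 and 1.03 on the brown SVF arrays, against 3.90, 5.81 and 6.52 on the epididymal SVF arrays (-4.46 ± 0.81, adjusted p = 0.00850). Clec10a, a lectin of such macrophages and of dendritic cells, stood at 2.21, 2.48 and 3.28 on the brown SVF arrays, against 4.69, 5.06 and 6.13 on the epididymal SVF arrays (-2.64 ± 0.64, adjusted p = 0.0498), close to the threshold. Cd209b, a lectin of macrophages, stood at -1.86, -2.28 and -1.70 on the brown SVF arrays, against 1.75, 2.31 and 4.36 on the epididymal SVF arrays (-4.76 ± 0.95, adjusted p = 0.0158). Epididymal SVF replicate 3 was the highest array for all 3 genes, and the groups did not overlap. Retnla lost its call without epididymal SVF replicate 3 (adjusted p = 0.0532). Clec10a lost its call whichever of the 6 arrays was left out, with an adjusted p of up to 0.260 (without epididymal SVF replicate 3). Cd209b lost its call without brown SVF replicate 1, 2 or 3 or epididymal SVF replicate 3, with an adjusted p of up to 0.0939 (without epididymal SVF replicate 3). Adgre1, the F4/80 antigen, stood at 2.17, 1.60 and 2.83 on the brown SVF arrays, against 2.55, 3.29 and 4.01 on the epididymal SVF arrays (-1.09 ± 0.75, adjusted p = 0.734), and Ptprc, the CD45 antigen of all leukocytes, at 1.53, 1.16 and 1.95 on the brown SVF arrays, against 1.64, 1.69 and 2.27 on the epididymal SVF arrays (-0.32 ± 1.11, adjusted p = 0.996), both with overlap. For Ptprc 1 of the other 3 probes had the opposite sign. None of the 19 T and NK cell genes or the 13 B and plasma cell genes was called, with medians of -0.09 and 0.00. Lists this short can easily hold no call at the 1.78% share of all genes. Cfb, complement factor B, differed by -1.43 ± 0.34 (adjusted p = 0.0473). Cfb lost its call without brown SVF replicate 1, 2 or 3 or epididymal SVF replicate 2 or 3, with an adjusted p of up to 0.259 (without epididymal SVF replicate 3).

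Genes of adipocyte progenitors gave 1 call over 3 lists, near the 1.78% share of all genes, so the count is no result about progenitors. In simulated data 12% of the genes changed by 1 on the log2 scale were recovered, so a missing call says little. Of 20 general progenitor and fibroblast genes none was called and the median was -0.36, with 15 of the 20 means lower in brown SVF. Of 14 genes of early progenitors, the Dpp4 and Pi16 type, none was called, with a median of -0.63, and of 12 genes of committed preadipocytes, the Icam1 type, Dlk1 was called higher, with a median of 0.27. Pdgfra, the receptor that marks these progenitors, stood at 1.99, 2.30 and 2.82 on the brown SVF arrays, against 3.01, 2.81 and 3.53 on the epididymal SVF arrays (-0.75 ± 0.59, adjusted p = 0.814). The highest brown array met the lowest epididymal one, so the groups overlapped. Cell cycle genes had lower means in brown SVF for 23 of 24 members, by a median of -1.09, and 1 was called, the mitotic kinase Cdk1, at -2.50, -3.91 and -2.53 on the brown SVF arrays, against -1.72, -1.39 and -1.02 on the epididymal SVF arrays (-1.60 ± 0.39, adjusted p = 0.0493). Cdk1 lost its call whichever of the 6 arrays was left out, with an adjusted p of up to 0.240 (without epididymal SVF replicate 3). Immediate early genes, which respond to stimulation and to tissue handling, had higher means for 21 of 24 members, by a median of 0.75, with Egr3 called (2.95 ± 0.69, adjusted p = 0.0405). Egr3 lost its call without brown SVF replicate 1 or 3 or epididymal SVF replicate 1, 2 or 3, with an adjusted p of up to 0.196 (without brown SVF replicate 1). Among the heat shock genes Hspa1a was called at 7.75, 7.26 and 7.39 on the brown SVF arrays, against 4.18, 4.56 and 4.15 on the epididymal SVF arrays (3.17 ± 0.63, adjusted p = 0.0155). Hspa1a lost its call without brown SVF replicate 1 or 3 or epididymal SVF replicate 1 or 3, with an adjusted p of up to 0.0765 (without brown SVF replicate 1). The part of digestion and handling in these differences was not tested.

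The comparison was repeated without brown SVF replicate 2, the array with the highest Adipoq level. 212 genes were called, 139 higher and 73 lower in brown SVF, and 195 of them were among the 342. Ucp1 then differed by 9.13 (adjusted p = 0.0242), Cidea by 7.25 (adjusted p = 0.00621), Cox8b by 5.05 (adjusted p = 0.00785), Zic1 by 6.08 (adjusted p = 0.0289) and Gfra3 by 4.00 (adjusted p = 0.000422). Upk3b differed by -9.62 and lost its call (adjusted p = 0.0768). Without this array 7 Schwann genes, 6 mural genes and 1 mesothelial gene were called.

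The depot difference of the SVF was then set against that of the adipocyte fractions of the same depots. The brown adipocyte arrays shared slides and scan days with brown SVF, but the epididymal adipocyte arrays were scanned on other days with another version of the scanner software, so depot and scan cannot be told apart in the adipocyte difference. Of the 342 genes called in the SVF, 175 were called in the adipocytes with the same sign, 30 with the opposite sign, and 137 were not called there. The depot difference in the SVF minus that in the adipocytes was tested as an interaction in the same fit. It was called for 388 of 19217 genes (2.02%), 286 with a positive and 102 with a negative value, and for 93 of the 342 (27.2%). Its sign does not tell in which fraction a gene's level was higher. The count of 388 ranged from 182 without epididymal SVF replicate 2 to 1314 without epididymal adipocyte replicate 2.

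**Figure D5:**
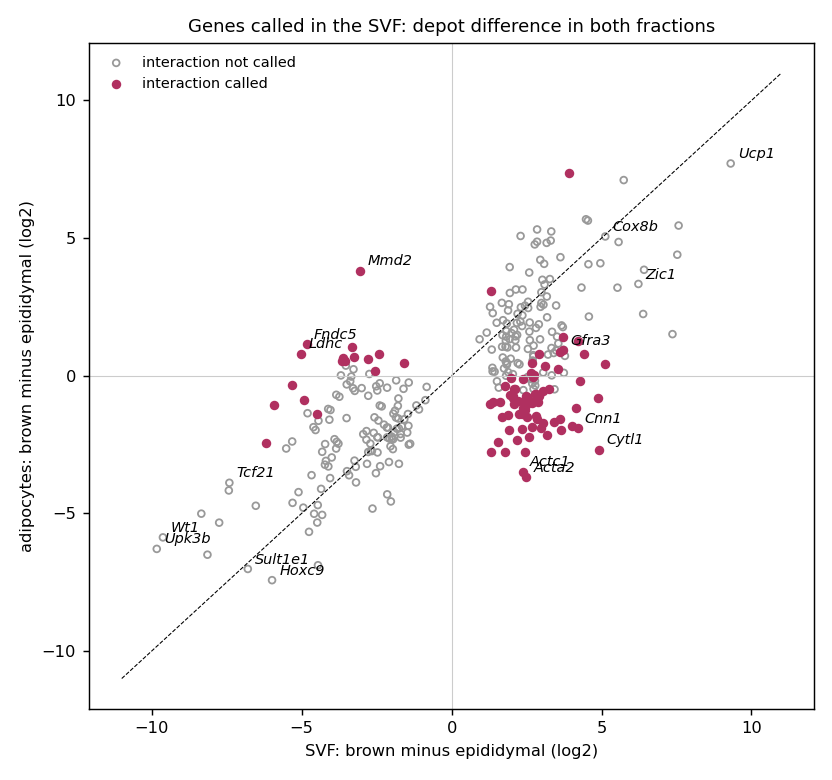
Each point is 1 of the 342 genes called in the SVF, with its brown minus epididymal difference in the SVF on the x axis and in adipocytes on the y axis (log2); filled points are the 93 genes whose interaction was called and the dashed line marks equal differences. Ucp1, Cox8b, Hoxc9 and Sult1e1 lie near the line, while Acta2, Cnn1 and Cytl1 are higher in brown SVF and lower in brown adipocytes.

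Mural genes were among those whose depot difference differed between the fractions. Acta2 differed by 2.49 in the SVF and by -3.69 in adipocytes, an interaction of 6.18 ± 0.64 (adjusted p = 0.000322). Cnn1 differed by 4.20 and -1.91 (adjusted p = 0.00203), and Cytl1 by 4.91 and -2.69 (adjusted p = 0.00124). Of the 13 mural genes 7 had a called interaction, against 6 of 15 Schwann genes, 1 of 19 thermogenic genes and 0 of 18 mesothelial genes. Over all genes the share was 2.02%. The SE of the interaction was 2.89 for Upk3b and 2.99 for Wt1, against 0.64 for Acta2 and 0.85 for Cnn1. The counts of these lists therefore cannot be set against each other. Gfra3 differed by 3.72 in the SVF and by 0.92 in adipocytes (adjusted p = 0.0182). On the other side, Mmd2 differed by -3.04 in the SVF and 3.82 in adipocytes (adjusted p = 0.00304), and Fndc5 by -4.83 and 1.14 (adjusted p = 0.0144). In the SVF comparison itself Mmd2 was called at an adjusted p of 0.0400 (limma). It lost that SVF call whichever of the 6 arrays was left out, with an adjusted p of up to 0.184 (without brown SVF replicate 1). For Ucp1, with 9.31 in the SVF and 7.71 in adipocytes, the interaction was 1.60 ± 2.20 and did not pass (adjusted p = 0.710), and for Sult1e1, with -6.80 and -7.02, it was 0.22 ± 1.77 (adjusted p = 0.957). Zic1, at 6.23 and 3.33, and Upk3b, at -9.83 and -6.29, did not pass either (adjusted p = 0.288 and adjusted p = 0.504), with standard errors too large to show that the fractions act alike. No brown array of either fraction was well above background for Upk3b, and no brown adipocyte array for Sult1e1, so these are fitted values whose size depends on the background.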

How the data were processed

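Total RNA from 6 groups of 3 samples was labelled with Cy3 and measured on 1-colour Agilent arrays of 43379 spots. The deposited files hold spot intensity values from Feature Extraction 10.5.1.1 or, for the inguinal and epididymal adipocyte arrays, 9.5.3.1, per the file headers; the intensity used was background-subtracted by that software. The deposited series matrix holds log2 values whose processing is not given in the sources used here; 18 of 18 columns matched an array of their group best, but 4 of 18 that of their own replicate number, so it served only as an alternative. 

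From the intensity, log2 of the processed signal minus log2 of the array's 75th percentile was computed, without non-uniform or population-outlier spots, and spots of a probe were averaged. A probe was kept (28595 in all) if every array of any 1 group had it well above background, and the brightest stood for a gene. SVF files carry no gene names, so names were taken through probe names from the inguinal and epididymal adipocyte files (mm8 design per their headers, mm7 for 1 array) and updated through RefSeq (GRCm38.p6). limma 3.58.1 in R 4.3.3 fitted 6 group means over 18 arrays, with two-sided tests and Benjamini-Hochberg adjustment over all genes, and was tested on simulated data. For genes not well above background on any array of a group, "at least N-fold" compares the other group's mean with, per array, the higher of the probe's value and the lowest signal well above background.

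Named genes were, per direction, the 15 called genes with the widest gap between groups, the 8 with the largest bound, up to 4 called members of each of 43 lists, a fixed set of followed genes and 8 genes by interaction; list members named beyond these (among them Prx, Foxd3, Mbp, Cspg4, Tagln, Lmod1, Notch3, the pericyte genes, Aldh1a1 and the further thermogenic genes) were named after their values were seen. Some genes that the rule takes are not reported here. The comparison, lists and followed genes were chosen with earlier results of these data known. Same-numbered replicates of the 2 depots were not treated as pairs, since no pairing is stated. Their deviations from the group means correlated at 0.03, -0.01 and 0.51, the last for the replicate 3 arrays, which shared a slide and scan day. Differently numbered arrays gave -0.47 to 0.39. With so few arrays these values cannot decide whether samples were paired. Alternatives covered normalization, background, filters, probes, names, arrays in the fit, blocks and each array left out. Normexp (offset 50) used the median in place of the mean signal, which the SVF files do not hold.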

Additional observations from a re-analysis of the deposited data

Results flagged for a closer look

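For the genes below, the depot difference in the SVF differed from that in the adipocytes of the same depots by the interaction test (limma, adjusted p below 0.05). Where a group had no array well above background, the interaction is a fitted value and no bound, since its size depends on the background of the arrays. Depot and scan cannot be told apart in the adipocyte part, and the part of the scan in these values was not tested.

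Among the positive values, the mural and muscle genes had interactions of 6.18 (Acta2), 6.12 (Cnn1), 4.01 (Myh11), 4.79 (Myocd), 5.85 (Actc1), 5.68 (Bves), 4.68 (Mlip) and 5.87 (Myog). The Schwann and glial genes had 2.80 (Gfra3), 2.56 (Sox10) and 2.94 (Gpr37l1). The secreted and matrix genes had 7.59 (Cytl1), 4.48 (Sbspon), 3.65 (Acan), 3.63 (Sostdc1), 5.21 (Sfrp5), 2.52 (Igf2) and 5.60 (Col19a1, a collagen). Mlana, a melanosome protein of pigment cells, had 5.32: it stood at -1.66, -1.22 and 0.30 on the brown SVF arrays, against -5.60, -5.68 and -3.72 on the epididymal SVF arrays (4.14 ± 0.90 in the SVF, adjusted p = 0.0273). Mlana lost its call without brown SVF replicate 1, 2 or 3 or epididymal SVF replicate 1 or 2, with an adjusted p of up to 0.136 (without brown SVF replicate 3). Col19a1 stood at -1.99, -2.10 and -1.68 on the brown SVF arrays, against -4.62, -5.85 and -6.20 on the epididymal SVF arrays, with 1 of 3 epididymal arrays well above background (3.63 ± 0.45, adjusted p = 0.000642). No brown adipocyte array was well above background for Myocd, Bves, Myog, Mlana or Col19a1, and no epididymal SVF array for Bves, Mlip or Myog.

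Among the negative values, Mmd2 had an interaction of -6.86, Fndc5 -5.98, Hpca -4.88, Gria1, a glutamate receptor subunit, -5.00, Gdpd2 -4.34 and Clec2m -4.08. Ldhc, Hils1 and Gapdhs, genes of the testis, had -5.82, -4.27 and -3.39. No brown array of either fraction was well above background for Hpca, Gria1, Gdpd2, Clec2m, Ldhc, Hils1 or Gapdhs. In epididymal adipocytes 1 array was for Hpca, Gria1 and Hils1 and none for the other 4, so the adipocyte part of their interactions compares levels near background. Gria1 was at least 9.92-fold (adjusted p = 0.00110), Gdpd2 at least 5.93-fold (adjusted p = 0.0149) and Clec2m at least 3.46-fold (adjusted p = 0.00110) lower in brown than in epididymal SVF. A gene was tested only if some group had it well above background on every array. Among the brown and epididymal groups, only the epididymal SVF met this for Gria1, Gdpd2 and Clec2m, which largely set their direction. Gdpd2 lost its call without brown SVF replicate 2 or epididymal SVF replicate 1 or 3, with an adjusted p of up to 0.0782 (without brown SVF replicate 2). Mmd2 stood at -4.63, -3.23 and -3.70 on the brown SVF arrays, against -0.90, -1.09 and -0.46 on the epididymal SVF arrays (-3.04 ± 0.71, adjusted p = 0.0400).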

How the results depend on the processing

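The 342 calls became 158 under normexp background correction, 208 with probes well above background on all 6 arrays, 620 with the 6 arrays alone, 98 with slide as a fixed block and, in fits added after the data were seen, 93 with the arrays of the first scan day alone; 508 without inguinal SVF replicate 1 and 391 without replicate 2 kept 342 and 328 of them. Leaving out 1 of the 6 arrays gave 183 to 222. The other alternatives gave 290 to 469, and the replicate block, on numbers for which no pairing is stated, 332. The share of calls higher in brown SVF was 59.4%, and 57.0% to 60.7% under the other scalings, but 80.6% with slide as a fixed block (79 higher, 19 lower), 45.2% on the first scan day (42, 51) and with the 6 arrays alone (280, 340), and 49.4% without inguinal SVF replicate 1 (251, 257). The 388 interaction calls became 678 under quantile normalization (380 higher, 298 lower), 59 under normexp (49 higher, 10 lower), 221 without a filter and 1320 with the 12 arrays alone, and 182 to 1314 with 1 array left out; the series matrix gave 565 (299 higher, 266 lower), the replicate block 536. Normexp moved the median of all interactions to -0.10. Slide and scan day as fixed blocks could not be fitted for the interaction.

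Of the named genes, 4 values changed sign: Adipoq to -0.067 without brown SVF replicate 2 (up to 1.94 with other arrays left out), Pdgfra to 0.14 with slide as a fixed block, and Gapdhs to 0.037 in the series matrix and to 0.32 without a filter. No other named gene reversed. Of 93 named genes, Adipoq, Pdgfra, Pecam1, Ptprc, Adgre1 and Msln were not called to begin with and had no call to lose. Among the others, 29 lost their call under normexp, 67 with slide as a fixed block, 61 on the first scan day alone and 7 under the replicate block. Signal over background limits the 85 called genes (40 higher, 45 lower in brown SVF) whose lower group had no array well above background.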

Other observations

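After Prm2, Ldhc and Hils1 appeared among the genes lower in brown SVF, 24 genes of testis germ cells, most of them of spermatids, were looked up. 15 of them could be tested, 12 had lower means in brown than in epididymal SVF, and 5 were called lower and none higher. The median difference was -1.57. Over all genes, 9716 of 19217 had lower means and 0.723% were called lower. A gene was tested only if every array of some group had it well above background. Among the brown and epididymal groups, only the epididymal SVF met this for Ldhc, Hils1 and Gapdhs. Their direction was thus largely set by the filter. Since the list was also made after its first members were seen, this is a description. Prm2, a protamine that packs sperm DNA, stood at -4.44, -4.00 and -4.58 on the brown SVF arrays, against 0.77, 0.28 and -0.25 on the epididymal SVF arrays (-4.61 ± 0.53, adjusted p = 0.000318). Tnp1, a transition protein that precedes the protamines, stood at -4.47, -5.13 and -4.19 on the brown SVF arrays, against -0.33, -0.40 and -1.57 on the epididymal SVF arrays (-3.83 ± 0.50, adjusted p = 0.000859). Every epididymal array lay above every brown array for both. Ldhc, the testis lactate dehydrogenase, was at least 13.2-fold (adjusted p = 0.000691), Hils1, a spermatid linker histone, at least 4.14-fold (adjusted p = 0.00665) and Gapdhs, the sperm glycolytic enzyme, at least 2.45-fold (adjusted p = 0.00196) lower in brown SVF. In the series matrix and without a filter on dim probes the Gapdhs difference turned to 0.037 and 0.32. The 5 calls stood whichever of the brown SVF arrays was left out. Of the testis genes 2 were called under normexp background correction and 1 with slide as a fixed block. Of 11 genes of epididymal epithelium 1 was well above background often enough to be tested, and it was not called.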
